A study of Mus musculus with 59 samples.

Results

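Polycomb repressive complex 1 (PRC1) is a family of chromatin complexes built on the ubiquitin ligases RING1A and RING1B, each defined by one of the PCGF proteins. PCGF1 marks the variant form called PRC1.1, which holds BCOR or BCORL1 and the CpG-binding protein KDM2B and mono-ubiquitinates histone H2A at CpG islands, many of them at promoters of developmental genes. Embryonic stem cells (ESCs) are cultured cells of the early mouse embryo that can form all lineages, and Polycomb complexes are known in them for holding developmental genes at low levels. The data described here are the 9 ESC libraries of the Pcgf1 line, 4 labelled control and 5 labelled mutant, chosen by those labels from the 59 samples of the series. The cells carried a floxed Pcgf1 allele (genotype ERT2-Cre;Pcgf1f/f) with a tamoxifen-inducible Cre at Rosa26, and the mutant, called Pcgf1-KO below, was ERT2-Cre;Pcgf1delta/delta after exposure to 4-hydroxytamoxifen (4-OHT). They were grown with LIF and 3 inhibitors (SU5402 against the FGF receptor, PD184352 against MEK1/2 and CHIR99021 against GSK3β) on mouse embryonic fibroblasts. Both groups carry the Cre, no library of these cells had 4-OHT without a floxed allele, and so an effect of 4-OHT and one of the deletion cannot be told apart. All libraries come from one conditional line, so another line was not sampled. Levels are TPM, transcript abundance per length, in which every library sums to the same total, and depth is unknown. The labels do not say that same-group libraries came from separate cultures, and p-values measure the spread between these libraries, which may be technical.

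The libraries fell into 3 series by the library numbers in their file headers, replicate 1, replicates 2 and 3, and replicates 4 and 5, and replicates of one series were alike. Over the 1888 genes averaging 100 TPM or more, log2 levels of Pcgf1-KO replicates 4 and 5 differed by a robust SD of 0.051, against 0.151 for replicates 2 and 3 and 0.33 to 0.891 for ESC libraries of different series. Without read counts, whether replicates 4 and 5 differ by more than sampling noise could not be tested. The fits below take the replicate number as a block over the ESC and embryoid body libraries of the line together. Pcgf1-KO ESC replicate 5 has no control ESC library of its number. A fitted log2 fold change can lie outside the same-numbered ESC pairs, as for Klf4, with 0.08 fitted and 0.29 to 0.42 in the pairs. Calls are also given with replicates 4 and 5 of a group averaged as 1 sample, an alternative chosen after seeing the data. All 10 ESC markers examined were present in both groups, with group means of 195 to 5974 TPM in control and 167 to 5759 TPM in Pcgf1-KO ESCs. Feeder fibroblast RNA was also present. Summed TPM of 8 defining fibroblast genes (Col1a1, Col1a2, Col3a1, Thy1, Postn, Prrx1, Lum and Dcn) ranged from 193 to 277 in control and from 147 to 220 in Pcgf1-KO ESCs. Over the whole list of 42 fibroblast markers the sums ran from 1968 to 4518 (median 2755) in control ESCs. In Pcgf1-KO ESCs they ran from 1655 to 3343 (median 1735). None of the 42 was called in either direction, where 5.31% of all genes were. The part of feeder RNA in the values below was not tested.

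Pcgf1 itself was measured at 10.7, 11.7, 13 and 13.6 TPM in the 4 control libraries and at 0.835, 1.06, 0.627, 2.77 and 1.65 TPM in the 5 Pcgf1-KO libraries. The groups did not overlap, and the log2 fold change was -3.34, SE 0.25, adjusted p = 3.36e-05. Reads remained in every Pcgf1-KO library. The value covers the whole gene, and which exons held the remaining reads is not shown by these files.

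Genes were called in both directions in Pcgf1-KO ESCs. Of 20594 genes tested, 522 were higher and 572 lower in Pcgf1-KO ESCs at an adjusted p under 0.05, or 5.31% of genes tested (2.53% higher and 2.78% lower), with limma on log2(TPM + 0.1) and the replicate number as a block. Of these, 186 rose and 240 fell by at least 2-fold. The direction was shared by all 4 same-numbered pairs for 520 of the genes called higher and 558 of those called lower, and 212 and 231 of them, respectively, had no overlap between the groups, where 2.1% and 2.56% of all genes tested did so in each direction. The size of the call list depended on the pairing. Without the replicate block 132 genes were called (66 higher and 66 lower), all among the 1094, and with replicates 4 and 5 averaged as 1 sample 666 genes were called, 660 of them among the 1094. Leaving out replicate 1, 2, 3 or 5 left 390, 208, 431 or 605 calls, and all 1094 genes kept their sign in each of these fits. Of the 154 called genes chosen for naming by rule, 43 were called with any one replicate number left out and 41 without the block. Log2 fold changes below are on the log2(TPM + 0.1) scale, which understates changes of genes at low levels, and the median over all genes tested was -0.04.

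**Figure D1:**
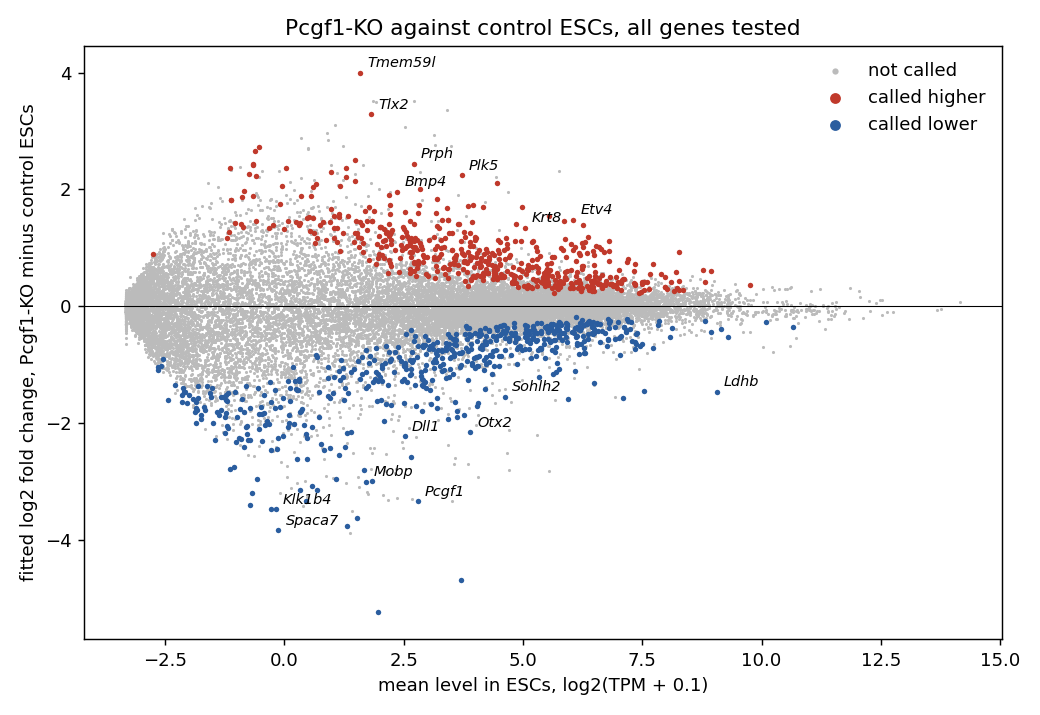
Mean level in ESCs, as log2(TPM + 0.1), against the fitted log2 fold change of Pcgf1-KO over control ESCs for the 20594 genes tested, with the 522 genes called higher in red and the 572 called lower in blue. Tmem59l lies at 4.00, Tlx2 at 3.29 and Pcgf1 at -3.34.

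The 15 genes with the largest rises, among called genes averaging 1 TPM or more in either group, included several known from neurons and other differentiated cells. Tmem59l, a membrane protein gene known from brain, had 0.902, 0, 0 and 1.09 TPM in control and 4.91, 4.04, 4.79, 6.1 and 6.54 TPM in Pcgf1-KO ESCs, log2 fold change 4.00, SE 0.57, adjusted p = 0.00154. Every Pcgf1-KO library lay above every control library. Plk5, a divergent member of the polo-like kinase family, had the smallest p of the genes that rose, with 3.18, 6.03, 4.3 and 5.3 TPM in control and 16.2, 27.6, 25.2, 18.5 and 19.4 TPM in Pcgf1-KO libraries (2.24, SE 0.18, adjusted p = 3.61e-05). Prph encodes peripherin, an intermediate filament of peripheral neurons. It rose from 1.32, 2.28, 1.52 and 3.18 TPM to 9, 9.92, 9.99, 11.7 and 13.3 TPM (2.44, SE 0.29, adjusted p = 0.000564). Plk5, Prph, Perp and Rtn4rl1 were called in all 15 alternative fits. The neuronal genes Cttnbp2, which encodes a cortactin-binding synaptic protein, and Rtn4rl1, of the Nogo receptor family, rose by 2.31 and 2.15 on the log2 scale, and neither overlapped between groups. Ubash3b, a phosphatase that dampens tyrosine kinase signalling, rose by 2.21, and Epor, the erythropoietin receptor gene, by 2.09, with 1 Pcgf1-KO library, replicate 5 at 0.985 TPM, inside the control range. The uncharacterised 1810041H14Rik rose by 2.72, from 0, 0, 0 and 0.486 TPM to between 0.603 and 1.94 TPM. The remaining genes of this group, Tlx2, Barx1, Pou4f2, Fgfbp3, Flrt1, Dhh and Perp, are described with their families below.

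Tlx2 was the nearest neighbour of Pcgf1 among the genes that rose. In mm9 coordinates Pcgf1 lies at chr6:83028380-83030841 on the plus strand and Tlx2, a homeobox gene of enteric neurons, at chr6:83018311-83020287 on the minus strand, 8.09 kb away. Tlx2 had 0.156, 0.296, 0.792 and 1.92 TPM in control and 4.41, 6.13, 5.35, 7.38 and 7.16 TPM in Pcgf1-KO libraries, log2 fold change 3.29, SE 0.56, adjusted p = 0.00433, with no overlap. Among the 18 other measured genes within 150 kb of Pcgf1, 1 more was called higher and 1 lower. Over all genes 2.53% were called higher and 2.78% lower. Dok1, a docking protein of tyrosine kinases, 44.9 kb away, rose by 1.34, and the bicarbonate transporter gene Slc4a5, 139 kb away, had a log2 fold change of -1.36, SE 0.25, adjusted p = 0.00646. Lbx2, a homeobox gene on the other side at 5.52 kb, had a log2 fold change of 1.5, SE 0.90, adjusted p = 0.386 and was not called, and Dqx1, 11.2 kb away, stood at -0.32. These neighbours were looked at after their values were seen, and whether the change of the Pcgf1 allele itself acts on them was not tested.

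Genes called higher had more CpG, the dinucleotide that KDM2B binds, at their starts than genes called lower, as a description without a test. In the 300 bases from 250 before to 50 after the annotated gene start (GENCODE M1 on NCBIM37, the mm9 assembly), the 488 of 522 genes called higher that had an annotated start held a median of 21 CG pairs, the 526 of 572 called lower 14, and all 17908 tested genes with a start 15. At most 5 CG pairs were found for 6.97% of the genes called higher, 25.3% of those called lower and 25.2% of all. The contrast depended on level. Among genes averaging 1 to 10 TPM in ESCs the medians were 20 for higher, 12.5 for lower and 14 for uncalled genes, and among genes of 10 to 100 TPM they were 21, 17 and 21. The annotated start need not be the one used in ESCs. Promoters of 4 genes that rose and of 2 kallikrein genes that fell are shown for how widely CG pairs varied among called genes, with every CG in capitals, written 5′ to 3′ on the gene's strand.
Tlx2: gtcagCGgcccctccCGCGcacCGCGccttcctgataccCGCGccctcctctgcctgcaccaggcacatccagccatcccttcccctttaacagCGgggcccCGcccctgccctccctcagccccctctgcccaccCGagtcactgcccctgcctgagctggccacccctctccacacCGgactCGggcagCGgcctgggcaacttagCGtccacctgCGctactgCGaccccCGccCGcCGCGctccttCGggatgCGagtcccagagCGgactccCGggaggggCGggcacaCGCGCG
Barx1: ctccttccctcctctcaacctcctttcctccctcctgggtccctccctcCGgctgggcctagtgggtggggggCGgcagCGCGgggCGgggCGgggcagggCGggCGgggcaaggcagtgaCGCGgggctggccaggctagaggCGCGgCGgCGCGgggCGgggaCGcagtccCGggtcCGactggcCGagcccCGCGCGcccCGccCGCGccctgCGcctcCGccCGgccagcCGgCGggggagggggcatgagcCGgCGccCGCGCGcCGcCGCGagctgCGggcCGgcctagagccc
Plk5: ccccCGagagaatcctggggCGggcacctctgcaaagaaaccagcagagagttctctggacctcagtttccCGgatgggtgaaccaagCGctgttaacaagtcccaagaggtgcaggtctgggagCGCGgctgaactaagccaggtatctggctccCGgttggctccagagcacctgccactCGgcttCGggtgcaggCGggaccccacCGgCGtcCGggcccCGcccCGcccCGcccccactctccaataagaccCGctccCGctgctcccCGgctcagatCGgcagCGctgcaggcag
Prph: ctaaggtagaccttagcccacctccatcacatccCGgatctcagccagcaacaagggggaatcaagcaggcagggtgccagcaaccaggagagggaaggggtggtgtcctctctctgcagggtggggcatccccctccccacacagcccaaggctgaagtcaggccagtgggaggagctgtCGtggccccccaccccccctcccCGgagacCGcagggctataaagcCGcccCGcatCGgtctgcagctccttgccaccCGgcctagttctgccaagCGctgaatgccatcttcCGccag
Klk1b4: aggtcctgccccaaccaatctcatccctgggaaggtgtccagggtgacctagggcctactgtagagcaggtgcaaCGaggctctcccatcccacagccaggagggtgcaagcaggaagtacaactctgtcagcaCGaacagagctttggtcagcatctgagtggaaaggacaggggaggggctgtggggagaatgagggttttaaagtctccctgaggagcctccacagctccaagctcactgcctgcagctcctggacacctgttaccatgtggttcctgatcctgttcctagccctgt
Klk1b5: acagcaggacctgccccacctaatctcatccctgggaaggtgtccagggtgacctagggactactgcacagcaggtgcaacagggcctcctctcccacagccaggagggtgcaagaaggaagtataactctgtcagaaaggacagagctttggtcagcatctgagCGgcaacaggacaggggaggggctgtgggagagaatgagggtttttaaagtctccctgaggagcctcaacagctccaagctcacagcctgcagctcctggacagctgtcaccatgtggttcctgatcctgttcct
The windows lie at chr6:83020238-83020537, chr13:48758117-48758416, chr10:79818954-79819253, chr15:98885355-98885654, chr7:51462555-51462854 and chr7:51471594-51471893 in mm9, the first on the minus strand and the others on the plus strand. They hold 28, 41, 21, 10, 2 and 1 CG pairs, so that Plk5 stood at the median of the genes called higher and Prph, which also rose, under their lower quartile of 14.

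Among Polycomb subunits, the genes of PCGF1's own scaffold proteins rose. Bcor and Bcorl1, which encode the alternative BCOR-type subunits of PRC1.1, were the 2 of 9 PRC1.1 genes called, both higher, and none was lower. Over all genes 2.53% were called higher and 2.78% lower. Bcorl1 had 3.98, 6.1, 8.71 and 6.05 TPM in control and 8.46, 17, 18.5, 11.2 and 10.5 TPM in Pcgf1-KO ESCs (1.14, SE 0.18, adjusted p = 0.00277), and Bcor 16.6, 40.2, 49.9 and 21.4 TPM and 24.7, 72.2, 78.7, 31.5 and 32.4 TPM (0.65, SE 0.12, adjusted p = 0.00572). The groups overlapped for both, but each rose in 4 of 4 pairs and each was called with replicates 4 and 5 averaged and not without the block. Kdm2b had a log2 fold change of 0.36, SE 0.11, adjusted p = 0.0809, and Ring1, Rnf2 and Rybp, the genes of the ligases and their RYBP cofactor, of 0.28, 0.15 and -0.24. None of these passed. In the ESC libraries fitted alone with the block Kdm2b was called higher (adjusted p = 0.0383, higher in 4 of 4 pairs) and Rybp lower (adjusted p = 0.0472, lower in 4 of 4 pairs). Of 23 other PRC1 genes, Phc2 rose (0.76, SE 0.17, adjusted p = 0.0178), and Phc1 (-0.38, SE 0.07, adjusted p = 0.00627) and Mga (-0.67, SE 0.17, adjusted p = 0.0297) fell. Phc1 and Phc2 encode Polyhomeotic proteins of canonical PRC1, and MGA is a T-box and bHLH protein of the PCGF6 complex. Of 12 PRC2 genes, E130012A19Rik, also known as Epop, rose by 0.73 (SE 0.18, adjusted p = 0.0303). It was not called with replicates 4 and 5 averaged.

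**Figure D2:**
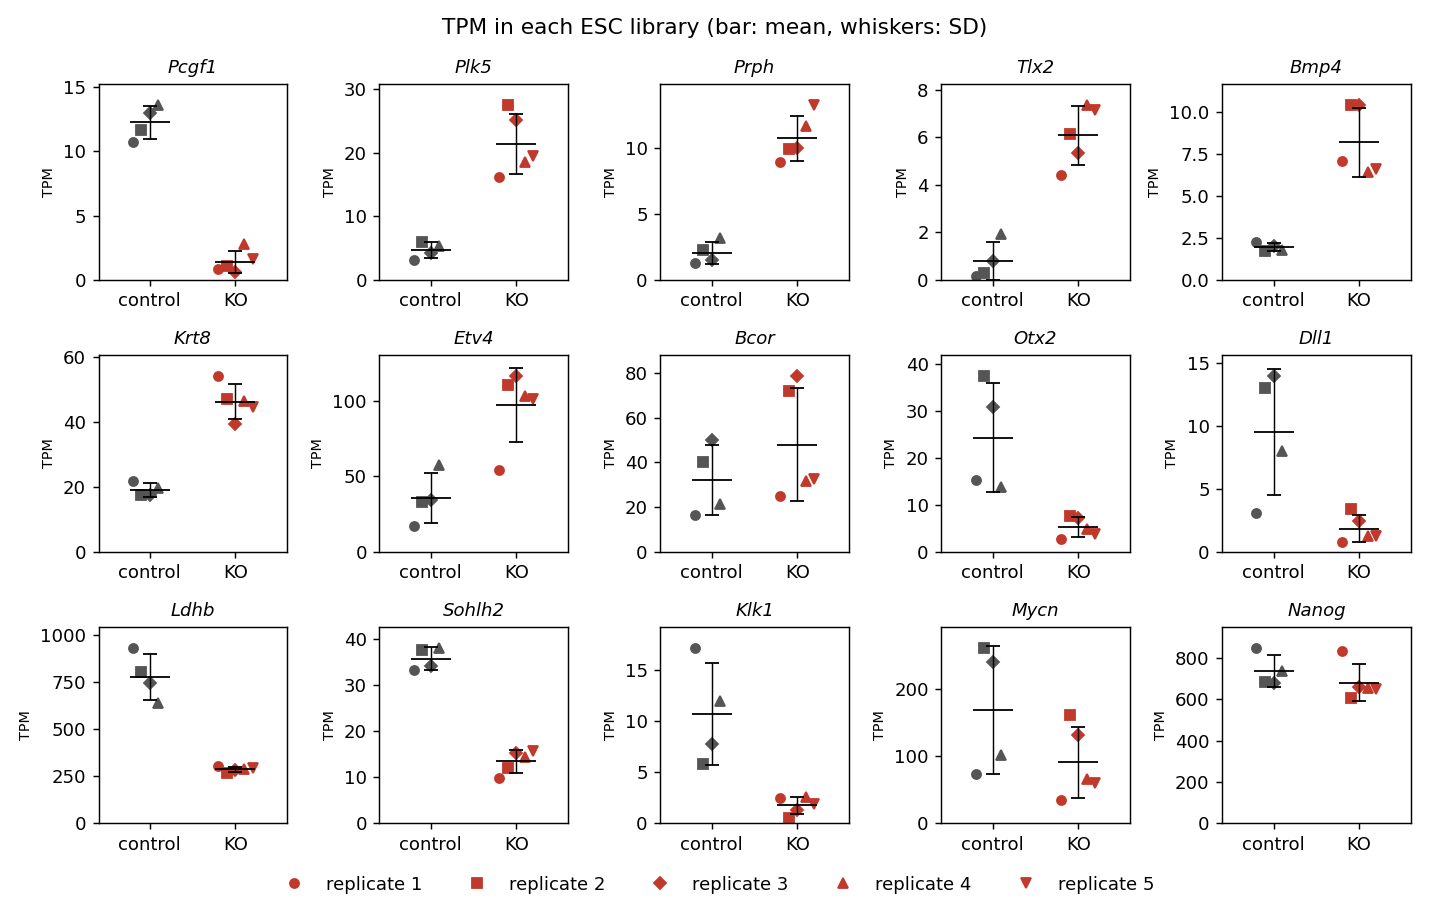
TPM of 15 genes in each of the 4 control and 5 Pcgf1-KO ESC libraries, with marker shape giving the replicate number, a bar for the mean and whiskers for the SD. Pcgf1, Otx2, Ldhb, Sohlh2 and Klk1 are lower in every Pcgf1-KO library than in every control library, Plk5, Prph, Tlx2, Bmp4 and Krt8 are higher in every one, and Nanog overlaps.

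Most genes of the pluripotency network were not called. Of 28 naive pluripotency genes 2 were called higher and 1 lower, and of 19 core genes 2 higher and none lower. Over all genes 2.53% were higher and 2.78% lower. The list medians were -0.12 and 0.07. Pou5f1, Sox2 and Nanog, the central factors, had log2 fold changes of 0.08 (SE 0.07), -0.27 (SE 0.18) and -0.22 (SE 0.26), and none was called. The naive factors Esrrb, Tfcp2l1, Zfp42, Klf4, Klf5, Tbx3 and Nr0b1 lay between -0.30 and 0.22 and were not called. Their SEs ran from 0.17 for Zfp42 to 0.60 for Klf4. Other genes of these lists lay further from 0 without being called. They included Dppa3 (-0.71, SE 0.45), Fbxo15 (-0.61, SE 0.30), Klf2 (-0.54, SE 0.34), Il6st (-0.41, SE 0.22), Dppa4 (0.31, SE 0.11) and Khdc3 (0.26, SE 0.57). In the fit of the ESC libraries alone with the block, Klf4 was called higher (adjusted p = 0.0224) and rose by 0.29 to 0.42 in the 4 pairs, and Sox2 (adjusted p = 0.0331) and Zfp42 (adjusted p = 0.0273) were called lower, by 0.15 to 0.23 and by 0.16 to 0.21 in the pairs. That fit also called Fbxo15 lower (adjusted p = 0.0224), and Dppa4 (adjusted p = 0.0310) and Khdc3 (adjusted p = 0.0269) higher. Gbx2, a homeobox factor of naive cells, rose from 3.68, 7.39, 6.94 and 9.23 TPM to 8.81, 27.4, 20.6, 16.5 and 17.7 TPM (1.4, SE 0.18, adjusted p = 0.00103), and every pair showed the rise. Tdh, the threonine dehydrogenase on which mouse ESCs rely, rose from 426, 323, 316 and 485 TPM to 617, 526, 528, 644 and 659 TPM (0.60, SE 0.11, adjusted p = 0.00629) without overlap. Dppa2 (0.57, SE 0.09, adjusted p = 0.0036) and Utf1 (0.42, SE 0.11, adjusted p = 0.0404), chromatin-associated factors of pluripotent cells, also rose. Fgf4, the autocrine FGF of ESCs, fell from 225, 293, 308 and 215 TPM to 142, 185, 193, 139 and 138 TPM (-0.71, SE 0.14, adjusted p = 0.0112), with every Pcgf1-KO library under every control library. Of these 5 genes Dppa2 alone was called without the replicate block, and Utf1 was not called with replicates 4 and 5 averaged.

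Genes of the formative epiblast, the state that follows naive pluripotency, split. Of 20 tested, 4 fell and 2 rose, where 2.78% of all genes were lower and 2.53% higher. Otx2, the homeobox factor that directs entry into that state, had 15.3, 37.4, 31 and 13.8 TPM in control and 2.63, 7.6, 7.17, 4.74 and 3.77 TPM in Pcgf1-KO ESCs. All Pcgf1-KO libraries lay below all control libraries, and the log2 fold change was -2.16, SE 0.23, adjusted p = 0.000334, called also without the block. Dact1 (-0.78), Foxp1 (-0.58) and Sox11 (-0.37) were the others that fell. Dnmt3b, the de novo DNA methyltransferase that rises in the epiblast, had 20.9, 33.8, 38.3 and 42.1 TPM in control and 52.1, 92.2, 96.7, 83.3 and 86.7 TPM in Pcgf1-KO libraries. Its groups did not overlap, but its adjusted p was 0.0496 and it was not called with replicates 4 and 5 averaged. Etv4, an ETS factor downstream of FGF signalling, rose from 17.2, 33.3, 34.3 and 57.4 TPM to 54.4, 111, 117, 104 and 101 TPM (1.48, SE 0.15, adjusted p = 0.000255). Fgf5 and Pou3f1, markers of the embryoid body stage, had means of 0.152 and 2.89 TPM in control and 0.137 and 4.86 TPM in Pcgf1-KO ESCs and were not called, although Pou3f1 was called higher in the ESC libraries fitted alone with the block (adjusted p = 0.0362).

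**Figure D3:**
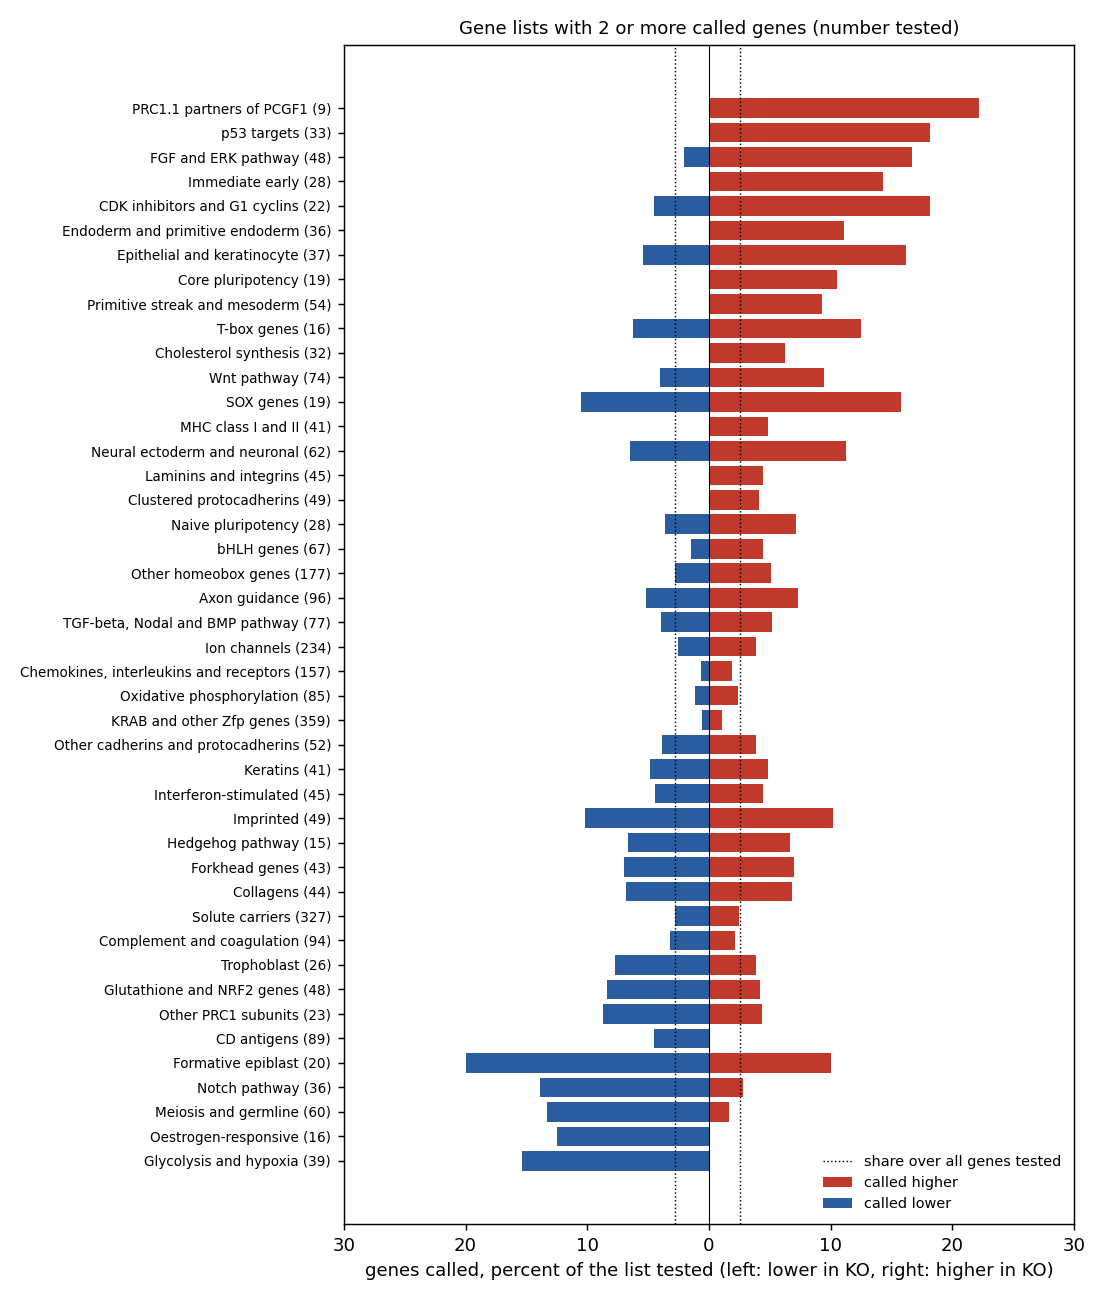
Percent of the tested genes of each list called higher (right, red) or lower (left, blue) in Pcgf1-KO ESCs, for lists with at least 2 called genes, with the number tested in brackets and dotted lines at the shares over all genes, 2.53% higher and 2.78% lower. The p53 list (6 of 33 higher) and the FGF and ERK list (8 of 48 higher) lie toward the top, and the germline (8 of 60 lower) and glycolysis and hypoxia (6 of 39 lower) lists toward the bottom.

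Called genes of the FGF and ERK pathway were mostly higher. Of 48 tested, 8 were higher and 1 lower, against 2.53% and 2.78% of all genes, and the list median was 0.23. With replicates 4 and 5 averaged 4 were higher and 1 lower, and without the block 1 and none. FGF-binding Fgfbp3 rose from 0.127, 0.725, 0 and 0.462 TPM to 0.969, 2.11, 1.87, 1.38 and 1.23 TPM (2.37, SE 0.49, adjusted p = 0.0127), and Flrt1, an FGF receptor partner, from 0.229, 1.01, 0.969 and 1.01 TPM to 1.12, 5.13, 4.49, 3.25 and 3.44 TPM (2.05, SE 0.49, adjusted p = 0.0247). Neither gene overlapped between groups. Etv1 and Etv4 encode ETS factors induced by ERK, and Dusp6 a phosphatase of ERK and a standard readout of the pathway. Etv1 (1.25, SE 0.35, adjusted p = 0.0497) and Dusp6 (0.37, SE 0.09, adjusted p = 0.0312) rose as well as Etv4. The groups overlapped for Etv1 and Dusp6. Neither was called with replicates 4 and 5 averaged or in the ESC libraries fitted alone with the block. Etv5, of the same ETS family, had -0.16 (SE 0.11) and was not called. Fgf4, a ligand of the pathway, was the gene that fell. The cells were grown with inhibitors of the FGF receptor and MEK in both groups.

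Of 77 genes of the TGF-beta and BMP pathway 4 were higher and 3 lower, near the 2.53% and 2.78% of all genes, with 4 and 2 when replicates 4 and 5 were averaged and 1 and none without the block. Bmp4, a ligand, stood at 2.24, 1.7, 1.99 and 1.79 TPM in control and 7.08, 10.4, 10.5, 6.45 and 6.6 TPM in Pcgf1-KO ESCs (1.96, SE 0.45, adjusted p = 0.0224). The groups were well apart. Id1, a direct target of BMP signalling, rose from 9.34, 2.73, 3.04 and 17.4 TPM to 31.8, 15.8, 13.5, 25.2 and 27.8 TPM (1.73, SE 0.36, adjusted p = 0.0138) and in every pair, although control replicate 4 lay within the Pcgf1-KO range. Tgfb1, another ligand, rose by 1.18, and Skil, a repressor of SMADs, had -0.75. Bmp4, Id1 and Tgfb1 were called with replicates 4 and 5 averaged.

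Called genes of the Notch pathway were mostly lower. Of 36 tested, 5 were lower and 1 higher, where 2.78% and 2.53% of all genes were, and the list median was -0.18. With replicates 4 and 5 averaged 4 were lower and none higher, and without the block 2 and none. Dll1, a ligand, had 3.07, 13, 13.9 and 7.97 TPM in control and 0.78, 3.37, 2.4, 1.23 and 1.21 TPM in Pcgf1-KO libraries (-2.23, SE 0.32, adjusted p = 0.00157). It was lower in each pair, while replicate 1 of the controls, at 3.07 TPM, lay under the highest Pcgf1-KO library. Lfng, the Fringe enzyme that glycosylates Notch, fell from 4.99, 7.81, 8.45 and 5.22 TPM to 2.13, 2.02, 1.44, 1.99 and 2.29 TPM (-1.68, SE 0.30, adjusted p = 0.00532), with no overlap, and it was called in all 15 alternative fits. Jag1, another ligand, had a log2 fold change of -1.06, SE 0.17, adjusted p = 0.00337. Dll3, a ligand-like inhibitor, was the gene that rose (1.17, SE 0.30, adjusted p = 0.0372). The Notch target Hes1 was measured at 62.7, 61.7, 58.3 and 66.8 TPM in control and 64.5, 68.5, 65, 64.2 and 61.1 TPM in Pcgf1-KO libraries, a log2 fold change of 0.01 (SE 0.16), and was not called.

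Wnt genes were called higher for 7 and lower for 3 of 74 tested, where 2.53% and 2.78% of all genes were. The list median was 0.03. Without the block 2 were higher and none lower. The ligand Wnt6 rose from 0.541, 0.205, 0.275 and 0.941 TPM to 2.12, 1.57, 1.86, 3.07 and 3.05 TPM (2.04, SE 0.38, adjusted p = 0.00743) and the enhancer Rspo1 by 1.55, both from under or near 1 TPM. Dkkl1, which carries the name of the Dickkopf inhibitors, rose from 4.46, 3.29, 5.03 and 6.29 TPM to 15.6, 12.3, 7.29, 21.6 and 17 TPM (1.48, SE 0.23, adjusted p = 0.00252). Cdx1, a caudal homeobox gene that responds to Wnt, rose by 1.38, from 31 to 52.9 TPM in control libraries to 68.8 to 147 TPM in Pcgf1-KO libraries. Fzd2, a receptor, rose by 1.27. In the Hedgehog pathway the ligand Dhh rose from 0.283, 0, 0.72 and 0.343 TPM to 0.822, 1.76, 1.62, 1.47 and 1.29 TPM (2.07, SE 0.52, adjusted p = 0.0317), whereas Ptch1, the receptor and a target of the pathway, fell by 0.81 on the log2 scale (adjusted p = 0.0215). With replicates 4 and 5 averaged Ptch1 kept its call and Dhh did not.

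Developmental transcription factors were scattered over both directions. Of 177 homeobox genes outside the Hox clusters 9 rose and 5 fell, where 2.53% of all genes were higher and 2.78% lower. Of 39 Hox genes none was called (list median 0.37, with 7 of the 39 at 1 TPM or more in either group). Barx1, a homeobox gene of the stomach mesenchyme, rose from 2.14, 0, 0.834 and 1.13 TPM to 3.57, 3.06, 4.43, 6.33 and 4.23 TPM (2.5, SE 0.55, adjusted p = 0.0174). Pou4f2, a factor of retinal ganglion cells, rose from 0.696, 0.529, 0.53 and 0.758 TPM to 2.2, 8.35, 5.29, 2.21 and 2.13 TPM (2.37, SE 0.44, adjusted p = 0.00649), and replicates 2 and 3 of the Pcgf1-KO, a single library series, were the highest. Tbx20, a cardiac T-box factor, rose by 1.74, Sox1, a neural plate factor, by 1.11, Olig2, a factor of motor neuron and oligodendrocyte progenitors, by 0.91, and Zfp423 by 1.61. Foxp4 rose by 0.97 and Foxj1, a regulator of motile cilia, by 1.02. Nkx1-2 rose by 1.9 with an adjusted p of 0.0499. Sox21 (-1.36, SE 0.28, adjusted p = 0.0117), Foxn4 (-1.26) and Obox6 (-2.16) fell. Forkhead genes were called higher for 3 and lower for 3 of 43, SOX genes for 3 and 2 of 19, T-box genes for 2 and 1 of 16, and bHLH genes for 3 and 1 of 67. No GATA gene (6 tested), Kruppel-like factor (17) or Zic or Gli gene (11) was called, and 4 of 359 KRAB and other Zfp genes rose and 2 fell.

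By lineage, 5 of 54 primitive streak and mesoderm genes, 4 of 36 endoderm genes and 7 of 62 neural genes rose, and none, none and 4, respectively, fell, where 2.53% of all genes were higher and 2.78% lower. With replicates 4 and 5 averaged the counts higher were 3, 3 and 5, and without the block 1, 1 and 2. The endoderm genes were Sox7, Krt8, Krt18 and Col4a1. Gata4, Gata6, Sox17, Dab2 and Cubn, which define primitive endoderm, had summed TPM of 3.83 to 7.82 in control and 3.85 to 8.87 in Pcgf1-KO libraries, and the groups overlapped. The neuronal intermediate filament gene Ina rose by 1.46, and Elavl4, a neuronal RNA-binding protein gene, fell by 1.84 on the log2 scale. Axon guidance genes were called higher for 7 and lower for 5 of 96. Efna3, an ephrin ligand, rose from 11.3, 17.7, 17.1 and 14.4 TPM to 32.8, 70.2, 66.2, 36.8 and 31.5 TPM (1.7, SE 0.19, adjusted p = 0.000351), its receptor family member Epha1 by 1.18 (SE 0.18), and the secreted cue Ntn1 by 1.01, while the semaphorin receptor Plxna2 had -1.22. Of 234 ion channel genes 9 rose and 6 fell, near the shares over all genes. Kcnj4 (1.35) and Asic1 (1.27) rose. Cacna1h, a T-type calcium channel, fell from 5.81, 27.6, 33.7 and 10.4 TPM to 1.3, 9.05, 8.2, 2.83 and 3.15 TPM (-1.91, SE 0.20, adjusted p = 0.00033), lower in each pair although the groups overlapped across series.

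Called epithelial genes were in both directions. Of 37 epithelial and keratinocyte genes 6 were higher and 2 lower, where 2.53% and 2.78% of all genes were, with 5 and 2 when replicates 4 and 5 were averaged and 3 and 1 without the block. Krt8, one of the first keratins of the embryo, had 21.9, 17.4, 17.6 and 19.5 TPM in control and 54.2, 47.1, 39.5, 46.4 and 44.6 TPM in Pcgf1-KO libraries (1.35, SE 0.16, adjusted p = 0.000595). Its partner Krt18 rose by 0.61 (SE 0.14). Cldn6, a tight junction gene of embryonic epithelia, rose from 53.9, 54.1, 47.5 and 49 TPM to 122, 118, 107, 91.2 and 92.6 TPM (1.1, SE 0.12, adjusted p = 0.000351), and Sfn, which encodes 14-3-3σ, from 59.9, 62.1, 56 and 59 TPM to 121, 128, 131, 127 and 123 TPM (1.04, SE 0.22, adjusted p = 0.013). None of these 4 genes overlapped between groups. Krt7 (-1.66, SE 0.32, adjusted p = 0.00807) and Krt80 (-2.62, SE 0.50, adjusted p = 0.00767), from the same family, fell with no overlap. Fat2, an atypical cadherin, fell from 1.61, 3.83, 5.55 and 1.7 TPM to 0.202, 0.609, 0.684, 0.388 and 0.599 TPM (-2.43, SE 0.40, adjusted p = 0.00343), and Pcdh1, a protocadherin, rose by 1.62. Of 44 collagen genes 3 rose and 3 fell. Among them Col5a3 (-1.25) and Col26a1 (-1.08) fell, Col4a1 rose by 0.57, and the fibroblast collagens Col1a1 and Col1a2 had -0.24 (SE 0.20) and -0.32 (SE 0.35) and were not called. The part of feeder cells in these lists was not tested.

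Called germline genes were mostly lower. Of 60 meiosis and germline genes, 8 were lower and 1 higher, against 2.78% and 2.53% of all genes, and the list median was -0.55. The median was below 0 in each of the 4 pairs, from -0.77 to -0.33. With replicates 4 and 5 averaged 3 were lower and 1 higher, and without the block none was called. Sohlh2, a bHLH factor of early germ cell differentiation, had 33.2, 37.6, 34.1 and 38 TPM in control and 9.84, 12, 15.2, 14.4 and 15.6 TPM in Pcgf1-KO libraries (-1.55, SE 0.27, adjusted p = 0.00453). Smc1b, the meiotic cohesin subunit, had 11.2, 16.4, 14.2 and 12.1 TPM and 4.33, 5.15, 3.26, 4.79 and 5.93 TPM (-1.74, SE 0.45, adjusted p = 0.0356), and Msh4, a meiotic crossover factor, 1.15, 1.6, 1.84 and 1.18 TPM and 0.393, 0.374, 0, 0.734 and 0.825 TPM (-2.07, SE 0.53, adjusted p = 0.0367). In none of the 3 genes did the groups overlap. Tuba3b, a testis alpha-tubulin gene with a near-identical copy, Tuba3a, whose reads could be split between them, also fell (-0.74). Spaca7, a sperm acrosome gene outside the list, was at 2.64, 1.12, 2.24 and 0.533 TPM in control libraries and was listed at 0 in all 5 Pcgf1-KO libraries (limma adjusted p = 0.00122). The Y-linked genes Zfy1 and Zfy2, named after their values were seen, had log2 fold changes of -1.49, SE 0.25, adjusted p = 0.00382 and -2.03, SE 0.42, adjusted p = 0.0126. They share sequence, so reads may be split between them.

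Some kallikrein genes of a cluster on chromosome 7 were called lower. Kallikreins are secreted serine proteases encoded by tandem copies, and the family was picked out after its values were seen. Over all genes 2.78% were lower and 2.53% higher. Of 13 Klk1 and Klk1b genes tested, Klk1, Klk1b3, Klk1b4, Klk1b5 and Klk1b16 fell, none rose, and the others were not called. They lie at chr7:51392137-51484987 in mm9, all on the plus strand. Klk1 had 17.1, 5.82, 7.78 and 11.9 TPM in control and 2.5, 0.528, 1.25, 2.59 and 1.85 TPM in Pcgf1-KO libraries (-2.59, SE 0.54, adjusted p = 0.0131). Klk1b5 had 5.45, 2.96, 3.3 and 2.54 TPM and 0.847, 0, 0.637, 0.527 and 0.418 TPM (-2.97, SE 0.68, adjusted p = 0.0208). Klk1b4 had 1.87, 1.01, 2.03 and 1.06 TPM in control and 0 TPM in each Pcgf1-KO library other than replicate 4, at 0.36 TPM. Klk1b3 was likewise at 0 in all Pcgf1-KO libraries other than replicate 4 (0.34 TPM), against 0.639 to 1.76 TPM in control. The members are close copies, and reads may be split between them. Klk1b3 and Klk1b4 were called without the replicate block. Klk1b16 was near the floor, at most 0.307 TPM in control and 0 TPM in every Pcgf1-KO library (adjusted p = 0.0482). It was called neither without the block nor with replicates 4 and 5 averaged.

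**Figure D4:**
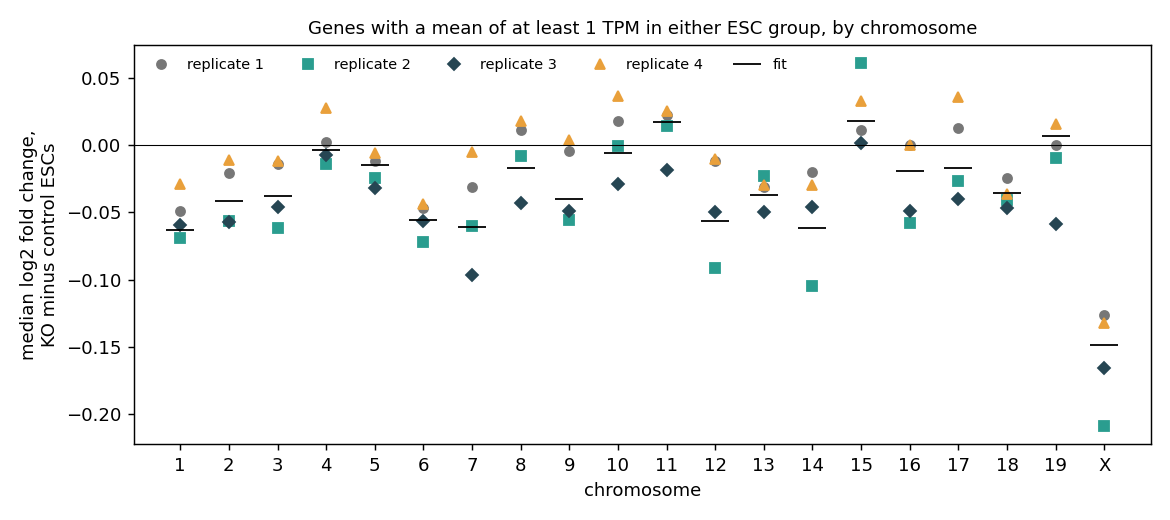
Median log2 fold change of genes averaging 1 TPM or more in either ESC group, by chromosome, for each same-numbered pair of Pcgf1-KO and control ESC libraries (markers) and for the fit (dash). The X chromosome lies at -0.15 in the fit and from -0.21 to -0.13 in the pairs, below the fitted medians of the 19 autosomes, which run from -0.06 to 0.02. The Y chromosome is not drawn.

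X-linked genes were called lower more often than genes of any autosome. Of 747 X-linked genes tested 47 were called lower (6.29%) and 10 higher (1.34%), while the share called lower ran from 1.61% to 4.01% over the 19 autosomes. Among the 431 X-linked genes averaging 1 TPM or more the median log2 fold change was -0.15, and it was -0.13, -0.21, -0.17 and -0.13 in the 4 same-numbered pairs. Autosomal medians in the fit ran from -0.06 to 0.02. In EBs the X median was -0.12. Of 10 Y-linked genes tested 2 were called lower, Zfy1 and Zfy2, and none higher. Among the 5 Y-linked genes averaging 1 TPM or more the median was -0.36, and from -0.63 to -0.27 in the pairs. Positions were known for 87.0% of the tested genes. The chromosomes were examined after the values were seen.

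Called glycolysis genes were all lower. None of 39 glycolysis and hypoxia genes was higher and 6 were lower, where 2.53% and 2.78% of all genes were, the list median was -0.43, and it was below 0 in all 4 pairs, from -0.45 to -0.30. Averaging replicates 4 and 5 left 4 of them, and dropping the block 1. Ldhb, a lactate dehydrogenase subunit, fell from 931, 802, 744 and 638 TPM to 302, 269.5, 281, 289.6 and 292 TPM (-1.46, SE 0.18, adjusted p = 0.000723) and was called in all 15 alternative fits. Aldoc, an aldolase, fell from 71, 69.8, 74.2 and 54.5 TPM to 37.4, 35.9, 33.6, 25.9 and 26.8 TPM (-1.16, SE 0.29, adjusted p = 0.0345), and Pfkfb3, which makes the activator of phosphofructokinase, by 1.16 on the log2 scale (adjusted p = 0.00149). Car12, a carbonic anhydrase induced by hypoxia, had -1.74, and of 15 carbonic anhydrase genes 5 fell and none rose, a family picked out afterwards. The same holds for the acyl-CoA thioesterases, of which 4 of 13 fell and none rose. Acot1, Acot2, Acot3 and Acot5, the genes that fell, lie in a cluster on chromosome 12 with Acot4 and Acot6, which were not called. Acot1 had 25.1, 37.1, 36.4 and 37.7 TPM in control and 15.5, 19.6, 21.8, 20.4 and 21.5 TPM in Pcgf1-KO libraries (-0.83, SE 0.12, adjusted p = 0.00149). Copies in the cluster may share reads. Of 84 cytosolic ribosomal protein genes none was called (list median -0.08). Oxidative phosphorylation genes were called higher for 2 and lower for 1 of 85, and cholesterol synthesis genes higher for 2 of 32 and lower for none. Glutathione and NRF2 genes were called higher for 2 and lower for 4 of 48, among them Gsto1 (0.99), which rose, and Gstm1 (-0.81) and Gsta4 (-0.44), which fell.

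Some genes induced by p53 and some cell cycle regulators rose. Of 33 p53 targets 6 were higher and none lower, where 2.53% and 2.78% of all genes were, and the list median was 0.33. The count was 4 with replicates 4 and 5 averaged and 1 without the block. Perp, a p53 and p63 target of cell junctions, rose from 11.5, 5.59, 5.68 and 11.9 TPM to 35.3, 26, 30.6, 40.7 and 41.9 TPM (2.12, SE 0.34, adjusted p = 0.00288). Btg2 (1.11), an antiproliferative gene, and Phlda3 (0.95) rose without overlap between groups, and Bbc3, which encodes the death factor PUMA, rose by 0.61. The standard targets Cdkn1a, at 0.45 (SE 0.17, adjusted p = 0.157), and Mdm2, at 0.33 (SE 0.13, adjusted p = 0.16), were not called, although all Pcgf1-KO libraries of Cdkn1a lay above all control libraries. In the ESC libraries fitted alone with the block Cdkn1a was called higher (adjusted p = 0.0217), by 0.29 to 0.49 in the 4 pairs, and Mdm2 was not (adjusted p = 0.0657). Trp53 itself was at 0.18 (SE 0.10). Of 28 immediate early genes 4 rose, Btg2, Zfp36, Junb and Ier5, with 1 when replicates 4 and 5 were averaged and none without the block. Among 22 CDK inhibitors and G1 cyclins, Cdkn2b (1.21), Myc (0.84), Ccne1 (0.62) and Ccnd3 rose and Mycn fell. Cyclin E gene Ccne1 went from 96.6, 101, 97.5 and 114 TPM to 141, 145, 163, 161 and 166 TPM with no overlap. The paralogues Myc and Mycn moved apart, with Myc at 3.82, 8.49, 7.34 and 5.41 TPM in control and 6.28, 20.6, 15.3, 7.25 and 6 TPM in Pcgf1-KO libraries and Mycn at 73.1, 262, 241 and 102 TPM and 35.1, 161, 132, 66.7 and 60.2 TPM, the latter with a log2 fold change of -0.84, SE 0.12, adjusted p = 0.00187. Cdkn2a, a well-known Polycomb target, had 0.28 (SE 0.11) and was not called.

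Imprinted genes, of which one parental allele is silent, changed in both directions, 5 higher and 5 lower of 49. Over all genes 2.53% were higher and 2.78% lower. No imprinted gene was called without the block. Grb10, a growth-restraining adaptor, rose from 22.7, 40.1, 38.3 and 50.3 TPM to 50.02, 103, 95.1, 77.3 and 76.5 TPM (1.15, SE 0.18, adjusted p = 0.00267), Plagl1, a zinc finger factor, from 47, 41.2, 44.1 and 49 TPM to 87.6, 88.9, 94.3, 87.9 and 90.4 TPM (1.02, SE 0.26, adjusted p = 0.0349), and the placental gene Peg10 by 1.02. Ascl2, a bHLH factor of the trophoblast, fell from 7.35, 10.01, 11.3 and 11.7 TPM to 3.62, 2.87, 3.4, 2.34 and 4.36 TPM (-1.72, SE 0.32, adjusted p = 0.00767), and Sfmbt2 by 1.03 on the log2 scale. The values do not separate parental alleles. Of 26 trophoblast genes Peg10 rose and Ascl2 and Krt7 fell.

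The lowest fold changes included genes of terminally differentiated cells. Mobp, a myelin protein gene, fell from 3.17, 7.46, 7.67 and 4.86 TPM to 0.329, 0.729, 0.741, 0.579 and 0.608 TPM (-3.01, SE 0.50, adjusted p = 0.00356), and Myl3, a cardiac myosin light chain gene, from 3.49, 8.04, 6.32 and 2.35 TPM to 1.08, 0, 0.61, 0.505 and 0.201 TPM (-3.62, SE 0.83, adjusted p = 0.0208). The pepsinogen gene Pga5 had -3.15, and Ripply1, a co-repressor of somite formation, -3.34. All these genes lay below the control range in every Pcgf1-KO library. Mir6922, Mir5100 and Snord11 had the lowest or nearly lowest fitted values, -5.24, -3.76 and -4.68, but they are short RNAs that a poly(A) library does not measure well, with Pcgf1-KO values from 0 to 28.8 TPM for Snord11. The uncharacterised 1700024P04Rik (-3.47), 4930591A17Rik (-3.16) and 1600014C23Rik (-3.08) were listed at 0 in at least 3 of the 5 Pcgf1-KO libraries and under 3 TPM in control, and Gm9112 was listed at 0 in all 5. Pcgf1-KO replicates 4 and 5, a single library series, lay inside the control range for 4930591A17Rik (1.44 and 1.22 TPM) and 1600014C23Rik (1.75 and 2.09 TPM).

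Among the remaining lists, the interferon-stimulated genes Tap1 (0.94) and H2-K1 (0.52), which serve antigen presentation, rose, and Ifitm1 (-1.57, SE 0.19, adjusted p = 0.000697) and Ifitm2 (-0.53) fell, of 45 tested. Solute carriers were called higher for 8 and lower for 9 of 327. For every list in this paragraph, the shares over all genes were 2.53% higher and 2.78% lower. Slc52a3, a riboflavin transporter, rose from 2.26, 2.61, 2.87 and 3.61 TPM to 7.65, 14.4, 12.5, 11 and 10.8 TPM (2.00, SE 0.40, adjusted p = 0.0107), and Slc13a4 fell by 2.00 on the log2 scale. Of 89 CD antigens 4 fell and none rose, among them Cd47 (-1.01) and Cd6 (-2.46). Of 16 oestrogen-responsive genes, included because 4-OHT binds the oestrogen receptor, none rose and 2 fell, Igfbp4 (-1.46, SE 0.29, adjusted p = 0.00932) and Rara (-0.38). Chemokines, interleukins and receptors were called higher for 3 and lower for 1 of 157, complement and coagulation genes for 2 and 3 of 94, clustered protocadherins for 2 and none of 49, laminins and integrins for 2 and none of 45, and ATF4 and unfolded protein response genes for 1 and none of 36. Heat shock protein genes were called higher for 1 of 17 and lower for none, and histone genes for 1 and none of 71. Other cadherins and protocadherins counted 2 higher and 2 lower of 52, keratins 2 and 2 of 41, MHC genes 2 and none of 41, DNA methylation genes 1 and none of 17, retinoic acid genes none and 1 of 22, LIF and JAK-STAT genes none and 1 of 17, ABC transporters none and 1 of 50, cytochrome P450 genes none and 1 of 76, and genes of the 2-cell stage none and 1 of 24. No antisense or long non-coding gene of 27 was called.

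The study grouped genes by RING1B binding in ESCs and embryoid bodies (EBs). Of the genes tested 92.3% were in none of the 3 groups, compared with 81.4% (425) of the 522 called higher and 94.8% (542) of the 572 called lower. Within the 1580 tested genes of the groups 97 were higher (6.14%) and 30 lower (1.90%), where 2.24% and 2.85% of the genes in none were. These shares were not tested. Log2 fold changes had a median of 0.10 in the groups and -0.05 over the 19014 genes in none.

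The same deletion was measured in EBs, aggregates grown for 2 days without LIF and inhibitors, with 5 control and 5 Pcgf1-KO libraries. Summed TPM of the 8 defining fibroblast genes ran from 24.1 to 45.2 in control and from 7.54 to 13.5 in Pcgf1-KO EBs. Over the whole list of 42 fibroblast markers the sums ran from 384 to 706 (median 584) in control and from 409 to 1028 (median 759) in Pcgf1-KO EBs. The part of fibroblast RNA in the values below was not tested. Of the 522 genes called higher in ESCs 179 (34.3%) were called higher in EBs and 16 (3.07%) lower, where 4.83% and 5.58% of all genes were, and of the 572 called lower 189 (33.0%) were lower and 5 (0.874%) higher. The medians of the log2 fold change in EBs were 0.30 and -0.35. The ESC and EB calls came from the same fit, with a shared estimate of spread and shared replicate terms, and so they are not independent. The effect itself differed between EBs and ESCs for 131 of the 1094 genes, where 1.62% of all genes tested did so at the same threshold (0.835% with the EB effect above the ESC effect and 0.782% with it below). Without the block 1 gene of all those tested showed such a difference, and with replicates 4 and 5 averaged 109. The ESC effect enters this difference, and so genes called in ESCs were more likely to show one. Of the 131, 16 were called higher in ESCs and lower in EBs, and 5 the reverse. Epha1, an ephrin receptor, was 1.18 in ESCs and -0.98 in EBs (difference -2.16, SE 0.24, adjusted p = 0.00103), Fzd2 1.27 and -0.97 (difference -2.24, SE 0.37, adjusted p = 0.0094), and Dnmt3b 1.45 and -1.29 (difference -2.74, SE 0.55, adjusted p = 0.024). Sox21 went the other way, -1.36 in ESCs and 1.6 in EBs (difference 2.96, SE 0.38, adjusted p = 0.00295). Pcgf1 fell in both, by 3.34 and 2.84, and Plk5 (1.76 in EBs), Gbx2 (1.67), Tlx2 (2.3), Barx1 (2.04) and Sohlh2 (-1.53) were called in the same direction in EBs. Olig2 rose in both and by more in EBs (difference 0.58, SE 0.14, adjusted p = 0.0466). Otx2 fell by 2.16 in ESCs and had -0.56 in EBs (difference 1.6, SE 0.31, adjusted p = 0.0226).

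**Figure D5:**
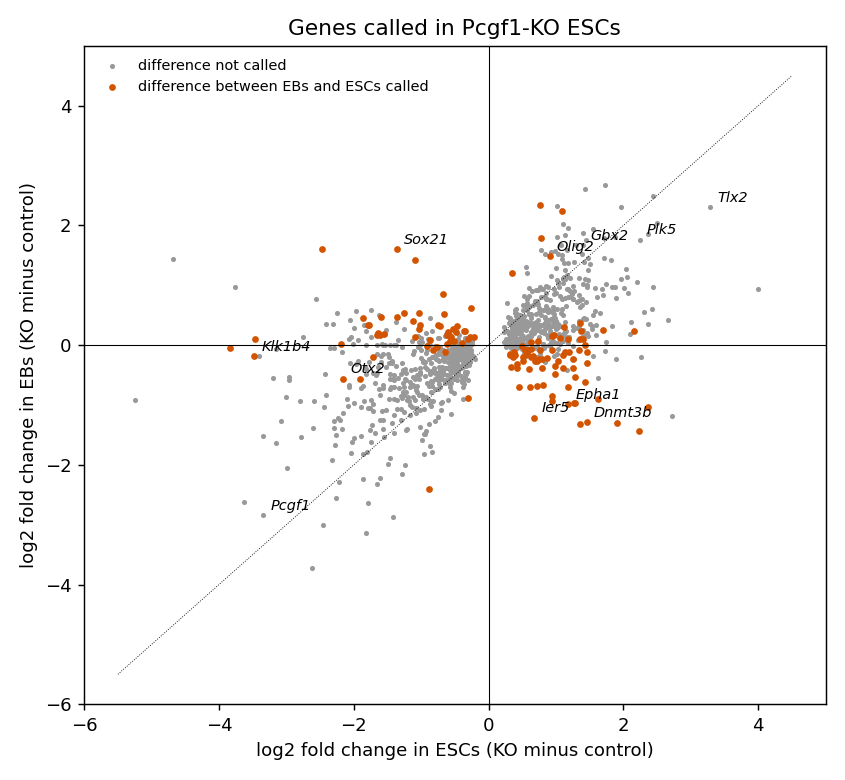
Log2 fold change of Pcgf1-KO over control in ESCs (horizontal) and in EBs (vertical) for the 1094 genes called in ESCs, with the 131 whose effect differed between the stages in orange and a dotted line where the effects are equal. Dnmt3b, Epha1 and Ier5 lie higher in ESCs and lower in EBs, and Sox21 the reverse.

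The same genes were also measured in cells with another PRC1 defect. ESCs of genotype ERT2-Cre;Ring1apm/pm;Ring1bpm/pm carry point mutations in RING1A and RING1B, and the 2 libraries made with 4-OHT were set beside 2 without it, whose genotype is ERT2-Cre;Ring1apm/pm;Ring1b, so that both groups carry the RING1A mutation. Of the 522 genes called higher in Pcgf1-KO ESCs 46 were higher and 1 lower in the point mutant, where 2.42% and 0.195% of the genes tested in both lines were (2.62% in either direction), and their median log2 fold change was 0.40, compared with 0.12 over all genes. Of the 568 genes called lower that were tested there, 8 were higher and 5 lower, with a median of 0.01. Barx1 rose in both, by 2.5 and 4.65, as did Cldn6 (1.1 and 2.41), Krt8 (1.35 and 1.76), Krt18 (0.61 and 2.06), Tbx20 (1.74 and 3.13), Olig2 (0.91 and 2.77) and Dhh (2.07 and 2.28). The 42 fibroblast markers had a median of 0.93 in the point mutant, and their part in these values was not tested. With median-of-ratios scaling the median over all genes of that line moved to 0.00. Tlx2, Plk5 and Prph had -0.04, 0.97 and -0.65 in the point mutant and were not called there.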

How the data were processed

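RNA-seq was made from poly(A) RNA with the NEBNext Ultra II kit and read as single ends on one of 2 Illumina sequencers, not stated per library. Per the labels and the submitters' processing notes, the authors aligned reads with STAR 2.5.2b to mm9 and deposited TPM values for 24391 genes in each library. The notes name DESeq2 among the tools the authors used. The step from counts to TPM and its use of strand are not given in the sources used here, and depth is unknown.

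Groups came from the labels. Fits used limma 3.58.1 (R 4.3.3, trend and Benjamini-Hochberg adjustment) on log2(TPM + 0.1) over the 20594 genes above 0 in any of the 19 libraries of the Pcgf1 line, with the 4 groups and the replicate number as terms (11 residual degrees of freedom). All p-values are two-sided. Deviations of same-numbered control and Pcgf1-KO ESC libraries from their group means correlated by 0.65, 0.43, 0.47 and 0.62 over 13400 genes. Replicates of one series were also alike, so these correlations cannot tell pairing by number from pairing by series. One Pcgf1-KO EB library carries different numbers in its title and its replicate label, and the title was used. The 8 libraries of the RING1 point-mutant line were fitted separately without a block. The script was tested on simulated data. Other libraries of the series were not used here.

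Genes named were the called Polycomb subunits, the 15 highest and 15 lowest called genes with a mean of at least 1 TPM, up to 4 called genes of each list with 2 or more, and the naive and core pluripotency genes. One gene that this rule names is not reported here. Acot1, Acot4, Acot6, Cdkn1a, Cdkn2a, Col1a1, Col1a2, Dok1, Dqx1, Dusp6, Etv5, Fgf5, Fzd2, Hes1, Kdm2b, Klk1, Klk1b16, Klk1b3, Lbx2, Mdm2, Pou3f1, Ring1, Rnf2, Rybp, Trp53, Zfy1 and Zfy2 were chosen after their values were seen, as were genes given only as members of a list's count. The members and all lists were chosen with earlier results of these data known. Promoters were read from NCBIM37 (mm9) at GENCODE M1 gene starts. Figures were drawn with Python 3.11.15 and matplotlib 3.10.9.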

Additional observations from a re-analysis of the deposited data

Results flagged for a closer look

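Among 151 of the genes given with values, the Pcgf1-KO effect differed between EBs and ESCs for 29 in the limma interaction test at an adjusted p under 0.05, as EB effect minus ESC effect in log2. Over all genes tested 1.62% did so. Many of the 151 were chosen because they were called in ESCs. The ESC effect enters the difference, and so such genes were more likely to show one. The difference was above 0 for Spaca7 (3.79), 1700024P04Rik (3.58), Klk1b4 (3.29), Sox21 (2.96), Col5a3 (1.79), Otx2 (1.6), Cdkn2a (1.38), Cacna1h (1.34), Sfmbt2 (1.3), Fgf4 (1.03), Acot1 (0.75) and Olig2 (0.58). It was below 0 for Fgfbp3 (-3.4), Nkx1-2 (-3.21), Dnmt3b (-2.74), Pcdh1 (-2.53), Fzd2 (-2.24), Epha1 (-2.16), Pou3f1 (-2.13), Rtn4rl1 (-1.92), Dll3 (-1.88), Btg2 (-1.49), Gsto1 (-1.48), Efna3 (-1.45), Krt8 (-1.42), Krt18 (-1.3), Cldn6 (-1.26), Tap1 (-1.02) and Foxp4 (-0.80). Without the replicate block 1 gene of all those tested kept such a difference, and leaving out one replicate number left 35 to 293. Spaca7 was listed at 0 in every Pcgf1-KO ESC library, so its difference rests on the pseudocount.

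A library stood apart from the rest of its group, by Dixon's gap over range, in 21 of 302 gene and group pairs examined, where chance gives about 1 in 20. Control ESC replicate 1 was the highest for Rnf2 (114 TPM). Control ESC replicate 1 was the lowest for Acot1 (25.1 TPM), Col4a1 (13.3 TPM), Flrt1 (0.229 TPM), Olig2 (6.97 TPM), Ripply1 (1.32 TPM) and Zfp423 (0.957 TPM). Control ESC replicate 4 was the highest for 1810041H14Rik (0.486 TPM). Pcgf1-KO ESC replicate 1 was the highest for Nanog (836 TPM) and Rnf2 (128 TPM). Pcgf1-KO ESC replicate 1 was the lowest for Asic1 (3.96 TPM), Dnmt3b (52.1 TPM), Etv4 (54.4 TPM) and Ina (1.18 TPM). Pcgf1-KO ESC replicate 2 was the lowest for Klk1b5 (0 TPM). Pcgf1-KO ESC replicate 3 was the lowest for Obox6 (0 TPM). Pcgf1-KO ESC replicate 4 was the highest for Klk1b3 (0.34 TPM) and Klk1b4 (0.36 TPM). Pcgf1-KO ESC replicate 5 was the highest for 1700024P04Rik (0.378 TPM), Mir5100 (2.81 TPM) and Mir6922 (2.73 TPM).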

How the results depend on the processing

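No gene called in Pcgf1-KO ESCs changed sign in any alternative in which it was tested. The 1094 calls (522 higher and 572 lower) became 1268 with a pseudocount of 1, 1227 with a mean of at least 1 TPM (636 and 591), 1159 with median-of-ratios scaling (627 and 532) and 1253 with quantile normalization (667 and 586), so that the larger direction depended on scaling and filter. The pairing moved counts most. Without the replicate block 132 genes were called in ESCs, 402 of 2143 in EBs and 1 of 333 for the difference between the stages. In ESC libraries fitted alone, 1825 were called with the block and 93 without. Among the former were Cdkn1a, Dppa4, Fbxo15, Kdm2b, Khdc3, Klf4, Pou3f1, Rybp, Sox2 and Zfp42, which the fit of both stages did not call. Leaving out one replicate number gave 208 to 879 calls in ESCs, 1211 to 1865 in EBs and 35 to 293 for the difference, the lowest without replicate 2 in ESCs and for the difference and without replicate 5 in EBs. Added after seeing the data, replicates 4 and 5 averaged as 1 sample gave 666, 1256 and 109 calls. Exchanging Pcgf1-KO EB replicates 4 and 5 gave 1079 calls in ESCs, and the series of library numbers as the block 1347. In the RING1 point mutant 515 calls became 207 with quantile normalization and 1326 with a replicate block. The cause of these differences was not tested. TPM values give no depth, so the precision of genes near 1 TPM is not known.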

Other observations

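Called genes were nearly all protein coding, 99% of those higher and 98.5% of those lower with an annotated class, compared with 93.8% of all tested genes. The median of X-linked genes was 0.04 in the RING1 point mutant.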
